A study of Rattus norvegicus with 15 samples.

Results

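Transcripts of the circadian clock genes Per1, Per2, Nr1d1, Dbp, Arntl and Clock were followed over the sampling times of a rat model of deep venous thrombosis. The members were 6 listed gene IDs: ENSRNOG00000007387 (Per1), ENSRNOG00000020254 (Per2), ENSRNOG00000009329 (Nr1d1), ENSRNOG00000021027 (Dbp), ENSRNOG00000014448 (Arntl, also named Bmal1) and ENSRNOG00000002175 (Clock). All 6 of 6 were among the 17599 features of the deposited table, and all 6 passed the filter on low values (a normalised read count of at least 10 in at least 3 libraries) that left 11117 features for testing. The table holds IDs without names. The pairing of these IDs with symbols came with the list and could not be checked, because the reference table of rat gene symbols matched 0 of the IDs.

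The circadian clock is a feedback loop of transcription that runs with a period of about a day in most cells, blood leukocytes among them. CLOCK and ARNTL bind E-box sequences as a dimer and drive Per, Nr1d1 and Dbp. PER proteins then repress that dimer, and NR1D1 (REV-ERBα) represses Arntl, so that in many tissues Arntl peaks when Nr1d1 and Dbp are low. Per1 is in addition an acute response gene, induced within an hour by glucocorticoids and by cAMP signalling.

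The blood was that of male rats of the outbred Sprague-Dawley stock, aged 6 to 8 weeks and weighing 250 to 300 g, kept under 12 hours of light and 12 hours of dark. There were 15 libraries in 5 groups of 3: sham (placed at 0 h by the labels) and rats bled 1 h, 6 h, 12 h or 72 h after modelling. How sham and model rats were operated on, and at which hour of the day they were bled, is not stated in the labels, so the times are hours after modelling and not clock hours. The labels name a run, A&B for the 9 libraries of sham, 1 h and 72 h, and C for the 6 libraries of 6 h and 12 h. Any comparison of 6 h or 12 h with the other groups therefore cannot be told apart from a comparison of run labels, whereas 12 h against 6 h, and 1 h and 72 h against sham, lie within 1 label. The labels number the replicates and name no animals, so p-values reflect the spread among these libraries alone, and that spread may be technical. In bulk blood, fewer cells of a type and less RNA per cell cannot be told apart. The labelled tissue could not be checked against markers of blood cells, and the prepared lists of other clock genes and of cell type markers had 0 members with a matched ID.

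Libraries held 29.2 to 43.3 M recovered reads (M, mega-reads). The 5 features with over 1% of reads each left 4.67 to 7.65 M for the rest. Values below are normalised read counts, that is reads divided by a factor for each library that ran from 0.584 (12 h replicate 2) to 2.67 (12 h replicate 3). The clock genes were thinly covered. Over all 15 libraries they had 1746 reads (Per1), 783 (Per2), 517 (Dbp), 385 (Clock), 235 (Arntl) and 91 (Nr1d1). A library without a read of a gene allows up to 3 reads at this depth, which is a normalised read count of 3.39 to 5.14 in the 6 libraries that lacked reads of a member and covers counting error only. Levels are not compared between genes, since the files give no transcript lengths.

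Promoter sequences are shown for the 3 genes whose windows hold clock-related letters, as background to their place in the loop. They are from RefSeq on the GRCr8 build (the study's processing notes name Rnor_6.0), in windows of 300 bases from 250 before to 50 after an annotated start. All 6 members had a window, and there were 8 in all. The letters searched on both strands were CACGTG (E-box), CACGTT (a variant E-box), TTATGTAA and TTATGCAA (D-box, bound by DBP), AGGTCA (core of the element bound by NR1D1 and ROR receptors) and TGACGTCA (cAMP response element). CACGTG is in 6.42% of all 33469 windows of the table, CACGTT in 4.83%, TTATGTAA in 0.893%, TTATGCAA in 0.863%, AGGTCA in 16.2% and TGACGTCA in 1.83%. The 250 bases before the start are printed 5′ to 3′ on the gene's strand, with matches in capitals. Per2 (minus strand, chr9:99496994-99497243) has a D-box match 192 bases and a variant E-box match 62 bases before the start. Nr1d1 has 2 windows on the minus strand, the first (chr10:84231813-84232062) with the variant E-box on the opposite strand 174 bases before its start and the second (chr10:84229455-84229704) with CACGTG 191 bases before its start. Arntl (plus strand, chr1:176766078-176766327) has AGGTCA 15 bases before the start. The windows of Per1, Dbp and Clock hold none of these letters. These are matches of letters in a short window and not shown binding sites.
Per2: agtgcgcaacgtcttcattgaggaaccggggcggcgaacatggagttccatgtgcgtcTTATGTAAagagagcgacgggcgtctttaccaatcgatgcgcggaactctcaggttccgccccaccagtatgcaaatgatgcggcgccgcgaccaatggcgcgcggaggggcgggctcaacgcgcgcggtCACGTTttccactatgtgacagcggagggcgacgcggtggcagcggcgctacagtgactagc
Nr1d1, first window: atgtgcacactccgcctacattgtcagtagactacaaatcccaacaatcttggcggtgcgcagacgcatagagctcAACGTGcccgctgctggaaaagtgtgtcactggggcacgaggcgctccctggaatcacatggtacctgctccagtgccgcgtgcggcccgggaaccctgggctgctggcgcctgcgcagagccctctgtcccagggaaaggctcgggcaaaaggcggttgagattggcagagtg
Nr1d1, second window: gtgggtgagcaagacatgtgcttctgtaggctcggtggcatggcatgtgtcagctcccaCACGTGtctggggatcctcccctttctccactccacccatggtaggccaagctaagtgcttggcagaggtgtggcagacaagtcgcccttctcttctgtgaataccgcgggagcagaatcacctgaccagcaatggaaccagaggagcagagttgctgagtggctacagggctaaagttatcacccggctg
Arntl: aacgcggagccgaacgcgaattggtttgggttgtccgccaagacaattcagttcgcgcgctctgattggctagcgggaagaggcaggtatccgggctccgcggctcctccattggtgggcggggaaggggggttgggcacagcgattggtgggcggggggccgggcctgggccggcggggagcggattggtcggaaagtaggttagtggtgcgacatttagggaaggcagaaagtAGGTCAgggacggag

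**Figure D1:**
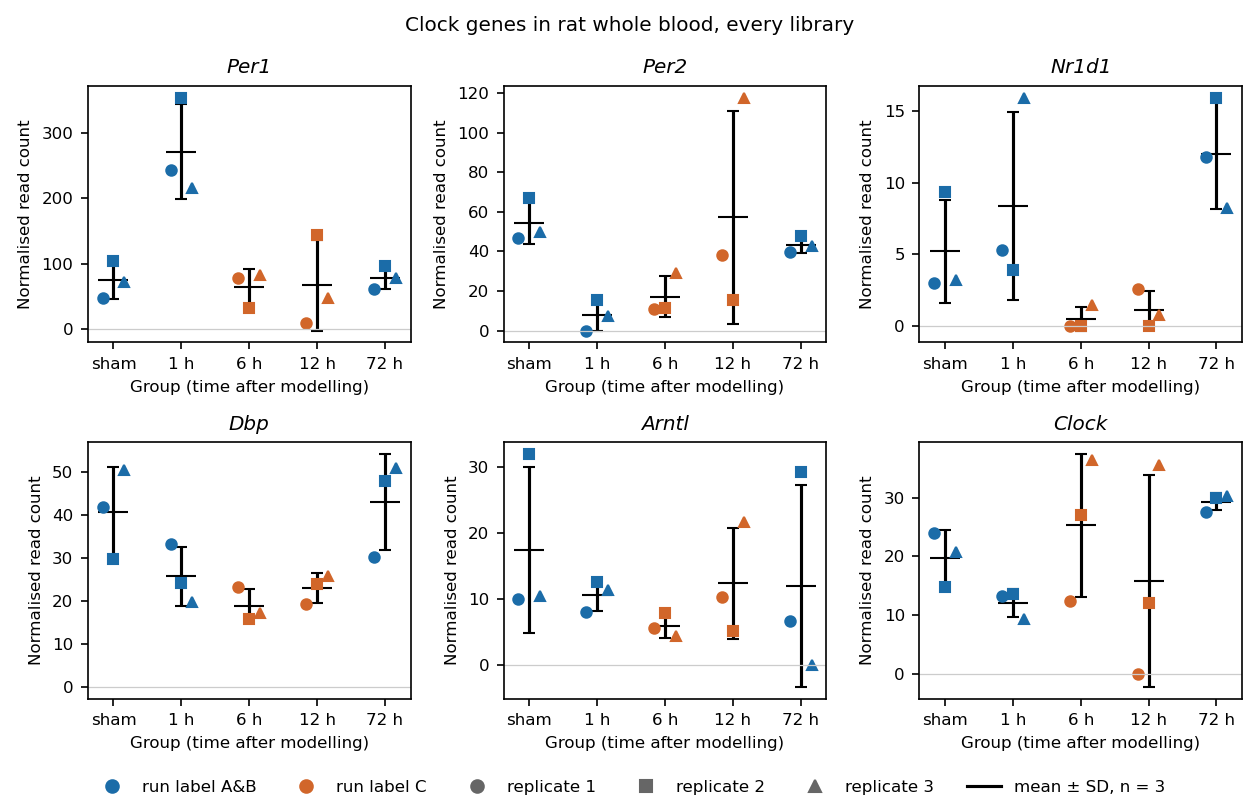
Normalised read count (vertical axis, linear) of the 6 clock genes in every library, by group. Points are libraries, with shape for the replicate number and colour for the run label, and bars are the mean ± SD (n = 3). Per1 at 1 h lies above every library of the other groups, Per2 is low at 1 h and 6 h, and Nr1d1 is listed at 0 to 2.56 in the 6 libraries of run label C and at 2.99 or more in the 9 of A&B. With so few reads the order of single Nr1d1 libraries is not settled, and Nr1d1 passed the filter only through libraries of 1 h and 72 h.

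Per1 and Per2, the paralogous repressors of the loop, stood on opposite sides of sham at 1 h. Per1 was 46.8, 104 and 72.4 in sham replicates 1 to 3 and 244, 354 and 216 at 1 h. The 6 h libraries had 78.2, 32.7 and 82.2, the 12 h libraries 8.95, 144 and 47.9, and the 72 h libraries 60.5, 96.8 and 78.5. Every 1 h library was above every other library of the study. Group means in the order sham, 1 h, 6 h, 12 h, 72 h were 74.4 ± 28.6, 271 ± 73.0, 64.4 ± 27.5, 66.9 ± 69.5 and 78.6 ± 18.1 (SD, n = 3). Sham, 6 h, 12 h and 72 h overlap, and their coefficient of variation was 104% at 12 h against 23.1 to 42.7% in the others: 12 h replicate 1 had 7 reads of Per1 and replicate 3 had 128.

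On the log2(value + 1) scale Per1 was 1.89 higher at 1 h than in sham (SE 0.668, 95% interval 0.48 to 3.30, 3.71-fold). Its unadjusted p was 0.0117, rank 274 of 11117 features, and limma's adjusted p was 0.472, so it was not called in the fit to all libraries. When only sham and 1 h entered the fit, the same difference had a limma adjusted p of 0.0200. That was the only 1 of 29 alternatives to pass, and over them adjusted p ran up to 0.940. The share of features that, like Per1, lay wholly above sham at 1 h was 9.6%. The share with 1 h above every other library was not computed. Between 72 h and 1 h the log2 difference of Per1 was -1.77 (SE 0.668, limma adjusted p = 0.426, and 0.0479 in a fit to these 2 groups alone). That fit was the only 1 of 29 alternatives in which Per1 passed between these times. At 6 h, 12 h and 72 h its differences from sham were -0.24, -0.80 and 0.13, each with a 95% interval that includes 0 (limma adjusted p of 0.893, 0.636 and 0.981). The 12 h value rests on single libraries: it was -2.42 with array weights (limma adjusted p = 0.00572), -1.70 without 12 h replicate 2 (0.627) and 0.23 without 12 h replicate 1 (0.945).

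Per2 was 46.8, 67.2 and 49.8 in sham and 0, 15.5 and 7.51 at 1 h. It was 10.97, 11.3 and 29.3 at 6 h, 38.4, 15.4 and 118 at 12 h, and 39.5, 47.8 and 42.7 at 72 h. All 3 libraries at 1 h and all 3 at 6 h lay below every sham and every 72 h library, while the 12 h libraries ran from 15.4 to 118. The share of features that lay so was not computed. The Per2 means from sham through 72 h were 54.6 ± 10.99, 7.68 ± 7.76, 17.2 ± 10.5, 57.2 ± 53.7 and 43.3 ± 4.17 (SD, n = 3). The order of the means was 12 h, sham, 72 h, 6 h and 1 h, and of these neighbours only 72 h and 6 h had ranges that did not overlap.

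The log2 difference of Per2 from sham was -3.40 at 1 h (SE 0.831, 95% interval -5.16 to -1.64). It had an unadjusted p of 0.000802, rank 44 of 11117, and a limma adjusted p of 0.203. DESeq2 on the recovered reads gave -2.79 with an adjusted p of 0.0497, limma with array weights gave 0.00761, and limma without 12 h replicate 3 gave 0.0403. Over all its alternatives the adjusted p ran from 0.00761 to 0.790. Features wholly below sham at 1 h made up 11.3% of those tested. From 1 h to 72 h the difference was 3.09 (SE 0.831, limma adjusted p = 0.236). The limma adjusted p was 0.0256 when the log2 factor entered as a covariate and 0.0442 with array weights, the only 2 of 29 alternatives to pass. Features wholly above 1 h at 72 h made up 7.95%. At 6 h Per2 was -1.74 from sham (SE 0.831, limma adjusted p = 0.299, and 0.0469 when only sham and 6 h entered the fit), where 14.2% of features lay wholly below sham. The fit to these groups alone was the only 1 of 29 alternatives in which Per2 passed at 6 h. At 12 h and 72 h it was -0.37 and -0.31 (limma adjusted p of 0.879 and 0.955).

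The ratio of Per1 to Per2 reads within a library does not depend on the factor that scaled it. In sham the ratio was 1.00, 1.55 and 1.45, and at 72 h it was 1.53, 2.03 and 1.84. At 1 h it was 22.8 and 28.8 in replicates 2 and 3, and replicate 1 had 184 Per1 reads and 0 of Per2, at least 61.3-fold more when 3 reads are taken as the limit in that library. It was 7.12, 2.90 and 2.80 at 6 h. At 12 h it was 0.233, 9.33 and 0.406, so that the 12 h libraries lay on both sides of sham. The 1 h ratios were thus above all others. Per1 reads per Dbp read were also highest at 1 h, 7.36, 14.6 and 10.95, against 1.12, 3.50 and 1.44 in sham and at most 6.00 at any other time. No test was made of these ratios, each of which joins 2 members.

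**Figure D2:**
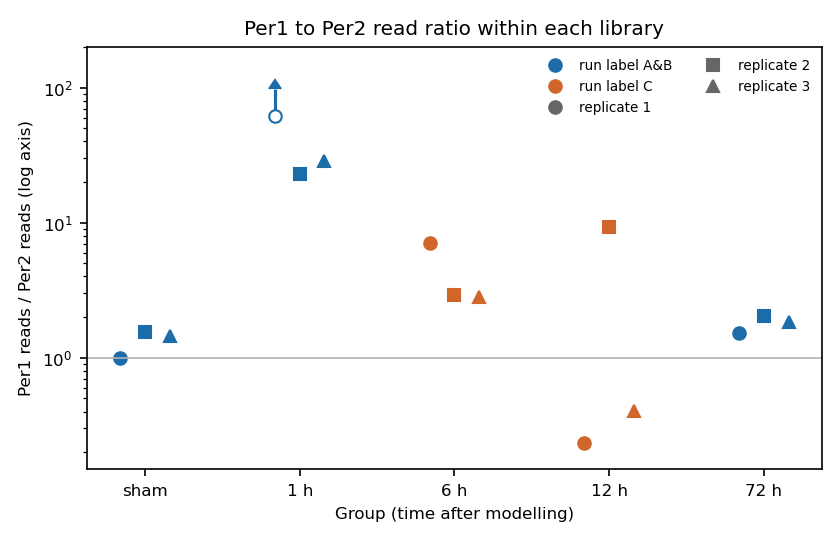
Per1 reads divided by Per2 reads in each of the 15 libraries (log axis), by group, with colour for run label and shape for replicate. The open symbol with an arrow is 1 h replicate 1, which had 0 Per2 reads and is drawn at its lower bound of 61.3. Ratios lie between 1.00 and 2.03 in sham and at 72 h, and at 22.8 or more at 1 h.

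Nr1d1, the nuclear receptor that represses Arntl, was near the limit of detection at 6 h and 12 h. It was 2.99, 9.37 and 3.23 in sham, 5.30, 3.88 and 15.97 at 1 h, 0, 0 and 1.43 at 6 h, 2.56, 0 and 0.748 at 12 h, and 11.8, 15.9 and 8.26 at 72 h. In reads, the 6 libraries of 6 h and 12 h held 6 in all, and the 9 libraries of the other groups held 85. The Nr1d1 means from sham through 72 h were 5.20 ± 3.62, 8.38 ± 6.61, 0.477 ± 0.826, 1.10 ± 1.32 and 12.0 ± 3.83 (SD, n = 3). As listed, the highest library of 6 h and 12 h (2.56) was below the lowest of the other groups (2.99), and 0.423% of tested features lay wholly lower in run label C than in A&B. Nr1d1 passed the filter only through 3 libraries of 1 h and 72 h, where it was high. The 0.423% is therefore no measure of how rare its place is. At this depth the order of single libraries is not settled: the 3 libraries with 0 reads allow up to 4.11, 3.39 and 5.14, and sham replicates 1 and 3 rest on 3 and 5 reads. Within A&B the order 72 h, 1 h and sham had overlapping neighbours.

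Nr1d1 was the 1 member of 6 called in any comparison of the fit to all libraries. It fell by 2.68 on the log2(value + 1) scale from the mean of 1 h and 72 h to the mean of 6 h and 12 h (SE 0.651, 95% interval -4.06 to -1.30, unadjusted p = 0.000761, limma adjusted p = 0.0444). Of all features, 1.84% were called in this contrast, in which time and run label cannot be told apart. Per1 (-1.53, SE 0.472, unadjusted p = 0.00501, limma adjusted p = 0.108) and Dbp also had an unadjusted p under 0.05 there, as did 16.6% of features, and were not called. The level at 1 h and 72 h was 12.9 times that at 6 h and 12 h by summed reads per summed library factor (65 against 6 reads, exact 95% interval 5.63 to 36.5, counting error only). Only 3 libraries reached the filter's minimum of 10, 1 at 1 h and 2 at 72 h, so this gene was tested because of the groups in which it was high. Without the filter its limma adjusted p was 0.0291. The call did not hold with the replicate number as a block (limma adjusted p = 0.0594) or in edgeR (0.0528), and leaving out single libraries gave 0.0293 to 0.137, under 0.05 only without 6 h replicate 3 or 12 h replicate 3. DESeq2 gave 0.00404.

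Against sham, Nr1d1 was -2.06 at 6 h (SE 0.921, limma adjusted p = 0.263) and -1.61 at 12 h (limma adjusted p = 0.467). By the listed values, with the same limits on libraries at 0, all 3 libraries of each time were below all 3 of sham. So were 14.2% of features at 6 h and 9.73% at 12 h. By summed reads sham was 7.87 times 6 h (20 against 2 reads, exact 95% interval 1.91 to 69.4, counting error only). On the same basis it was 5.27 times 12 h (20 against 4 reads, 1.77 to 21.2). Both intervals leave out the spread between libraries, and sham replicate 2 alone held 12 of the 20 sham reads. The 95% interval of limma, which includes that spread, had an upper limit of -0.11 at 6 h. At 12 h it ran from -3.55 to 0.34. Within run label A&B the differences from sham were 0.52 at 1 h and 1.17 at 72 h (limma adjusted p of 0.932 and 0.791).

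Dbp encodes a transcription factor of the PAR bZIP family and is a direct output of CLOCK and ARNTL. It was 41.9, 29.7 and 50.4 in sham and 30.3, 47.8 and 50.9 at 72 h. It was 33.1, 24.2 and 19.7 at 1 h, 23.3, 15.8 and 17.2 at 6 h, and 19.2, 24.0 and 25.8 at 12 h. The 6 libraries at 6 h and 12 h were all below every sham and 72 h library, and overlapped with 1 h. Of all features, 14.2% lay wholly below sham at 6 h and 9.73% at 12 h. The share below both sham and 72 h was not computed. Since 6 h and 12 h carry run label C, time and run label cannot be told apart here. The Dbp means from sham through 72 h were 40.7 ± 10.4, 25.7 ± 6.80, 18.8 ± 4.001, 23.0 ± 3.42 and 43.0 ± 11.1 (SD, n = 3). This gene had the smallest standard error of the 6, 0.373 log2 units for a difference between 2 groups.

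Its log2 difference from sham was -1.06 at 6 h (95% interval -1.85 to -0.27, unadjusted p = 0.0114, limma adjusted p = 0.164) and -0.77 at 12 h (unadjusted p = 0.0541, limma adjusted p = 0.393, and 0.0221 with array weights). Array weights were the only 1 of 29 alternatives in which the 12 h difference passed. At 1 h the difference from sham was -0.64 (unadjusted p = 0.105, limma adjusted p = 0.763), and at 72 h 0.08 (95% interval -0.71 to 0.87). The difference between 6 h and 12 h on one side and 1 h and 72 h on the other was -0.64 (SE 0.264, unadjusted p = 0.0280, limma adjusted p = 0.233). None of these passed the adjusted threshold in the fit to all libraries.

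Arntl and Clock encode the activating dimer. Arntl was 9.97, 32.0 and 10.3 in sham, 7.94, 12.6 and 11.3 at 1 h, 5.49, 7.90 and 4.29 at 6 h, 10.2, 5.14 and 21.7 at 12 h, and 6.58, 29.3 and 0 at 72 h. The Arntl means from sham through 72 h were 17.4 ± 12.6, 10.6 ± 2.40, 5.89 ± 1.84, 12.4 ± 8.48 and 11.96 ± 15.4 (SD, n = 3). All 3 libraries at 6 h were below all of sham and 1 h, and every other pair of neighbouring group means had overlapping ranges. Of all features, 14.2% lay wholly below sham at 6 h. The order against 1 h is not settled at this depth: 6 h replicate 2 (7.90) rests on 7 reads and 1 h replicate 1 (7.94) on 6. Its log2 difference from sham was -1.25 at 6 h (SE 0.964, 95% interval -3.29 to 0.79, limma adjusted p = 0.541), and -0.49, -0.46 and -1.39 at 1 h, 12 h and 72 h (limma adjusted p of 0.938, 0.867 and 0.770). The 72 h value depends on single libraries: it was -0.080 without replicate 3, which has 0 reads, -2.54 without replicate 2, and -0.47 in edgeR. Its values rest on 0 to 58 reads per library.

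Arntl was also the member most closely related to the library factor. For its log2 value and the log2 factor over 15 libraries, Pearson's r was 0.579 (permutation p = 0.0275, adjusted 0.136) and Spearman's rho was 0.707 (permutation p = 0.00406, adjusted 0.0244), with adjustment over the 6 members. Leaving out both extreme factors (12 h replicates 2 and 3), r was 0.548, and it was 0.710 in A&B and 0.664 in C. Per2 followed with r = 0.529 (permutation p = 0.0452, adjusted 0.136) and rho = 0.575 (permutation p = 0.0275, adjusted 0.0825), without the same 2 libraries r = 0.414, and r = 0.437 in A&B and 0.828 in C. The 12 h library with the highest Per2, Arntl and Clock values, replicate 3, also has the largest factor. The other 4 members had r between -0.040 and 0.381 (adjusted permutation p for r of 0.290 or more). With the log2 factor as a covariate the Arntl differences from sham were nearer 0, with -0.028, -0.84, -0.21 and -0.95 from 1 h through 72 h (limma adjusted p of 0.999, 0.660, 0.935 and 0.793).

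**Figure D3:**
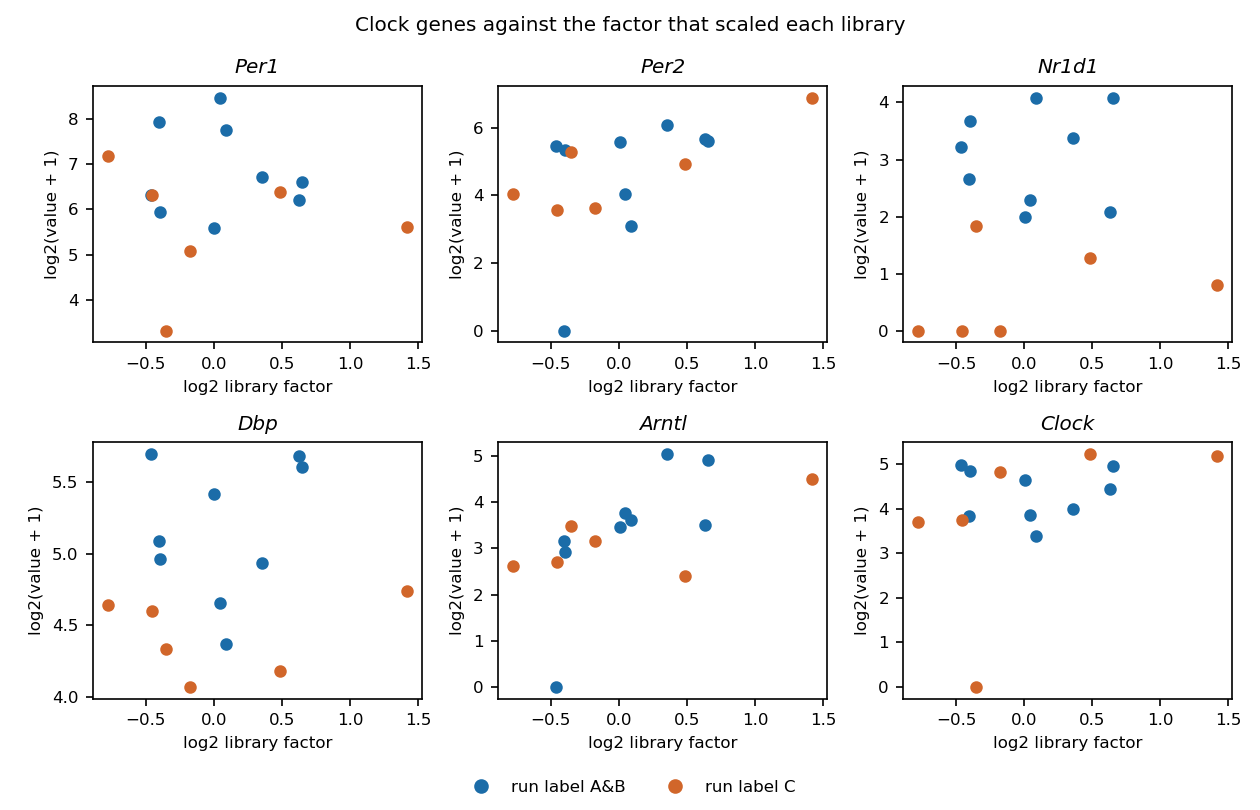
Log2(value + 1) of each clock gene (vertical axis) against the log2 of the factor by which its library was divided (horizontal axis), 15 libraries, coloured by run label. Arntl and Per2 tend to be higher in libraries with a larger factor (r = 0.579 and 0.529), and Per1 and Nr1d1 show r of -0.040 and 0.118.

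Clock was 23.9, 14.8 and 20.7 in sham, 13.2, 13.6 and 9.39 at 1 h, 12.3, 27.1 and 36.5 at 6 h, 0, 12.0 and 35.5 at 12 h, and 27.6, 29.9 and 30.3 at 72 h. All 3 libraries at 1 h were below sham and all 3 at 72 h were above it, as listed. The order is not settled at this depth: 1 h replicate 2 rests on 14 reads and sham replicate 2 on 19. Likewise 72 h replicate 1 rests on 21 reads and sham replicate 1 on 24. Of all features, 11.3% lay wholly below sham at 1 h and 7.78% wholly above sham at 72 h. The Clock means from sham through 72 h were 19.8 ± 4.60, 12.1 ± 2.32, 25.3 ± 12.2, 15.8 ± 18.1 and 29.3 ± 1.44 (SD, n = 3). The log2 differences did not pass: -0.66 at 1 h (SE 0.891, limma adjusted p = 0.904), 0.56 at 72 h (limma adjusted p = 0.910) and 1.23 between 72 h and 1 h (limma adjusted p = 0.725). At 12 h the difference from sham was -1.39 (limma adjusted p = 0.512). It was -2.50 without 12 h replicate 3 (0.0463) and 0.09 without 12 h replicate 1 (0.981), so that single libraries decided it. The 12 h replicate 1 library has 0 Clock reads, which allows up to 3.84.

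Whether 6 h and 12 h differ in the state of the clock was tested between the libraries of these times, which share a run label. By limma 0 of 6 members were called and 0 had an unadjusted p under 0.05. edgeR and DESeq2 on the recovered reads called 0 as well, with Per2 at an unadjusted p of 0.0258 and 0.0212 and an adjusted p of 1 in both. DESeq2 gave no adjusted p for Nr1d1. Over all features 0% were called by limma, with 423 of 11117 at an unadjusted p under 0.05. The log2 differences of 12 h from 6 h were 1.37 for Per2 (95% interval -0.39 to 3.13), 0.79 for Arntl (-1.25 to 2.82), 0.45 for Nr1d1 (-1.50 to 2.40), 0.29 for Dbp (-0.50 to 1.08), -0.55 for Per1 (-1.96 to 0.86) and -1.63 for Clock (-3.51 to 0.26). Each had a limma adjusted p of 0.990. For Per1 the direction depends on the measure. Its mean normalised read count was 66.9 at 12 h and 64.4 at 6 h, but its median was 47.9 at 12 h and 78.2 at 6 h. Its log2 difference was 0.016 in edgeR and 0.036 in DESeq2. Ranges at 6 h and 12 h overlapped for all 6 genes. Between libraries of the same replicate number, which the labels do not pair, Per2 was higher at 12 h in 3 of 3 and Clock lower in 3 of 3. With that number as a block over all 15 libraries, their unadjusted limma p was 0.0964 and 0.0721 (limma adjusted p = 0.977 for each). The check described below did not set replicates 1 and 2 apart as pairs, so no difference is read from these matches. Without the block, the intervals of all but Dbp reach to -1.96 or lower or to 2.40 or higher, so that differences of that size lie within them. With array weights, which give 12 h replicate 1 a weight of 4.34 and 12 h replicate 3 a weight of 0.202, Clock was -4.16 (limma adjusted p = 0.0122). That was the only 1 of 29 alternatives in which Clock passed here. The 12 h replicate 1 library has 0 Clock reads.

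**Figure D4:**
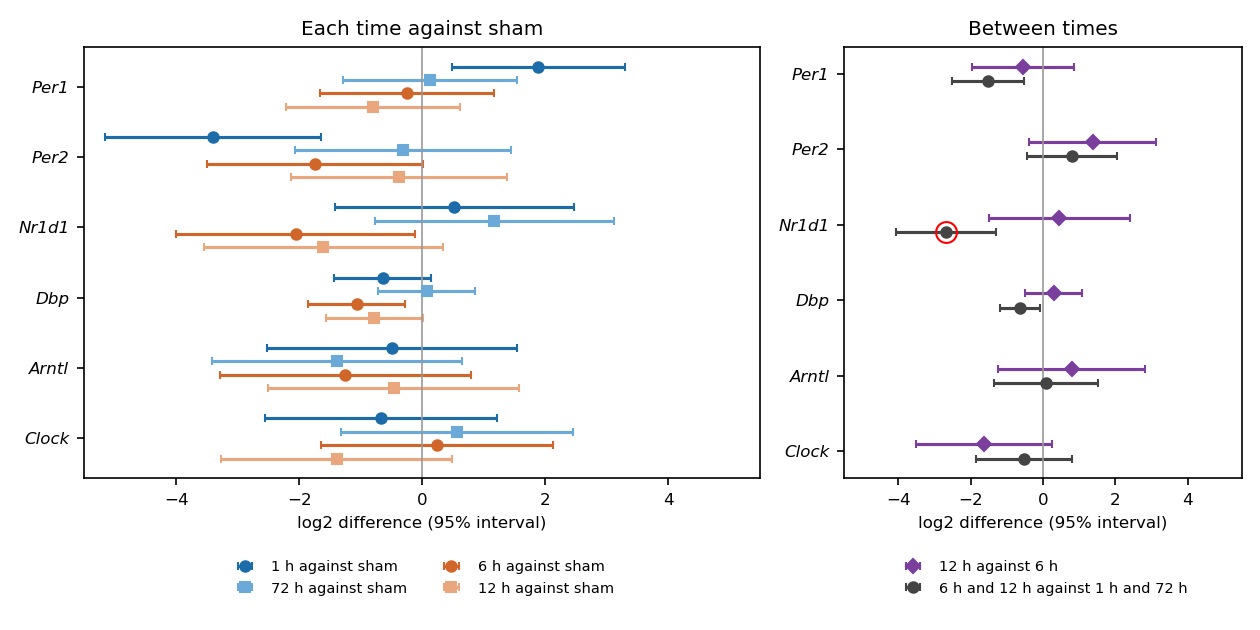
Log2 differences of the 6 clock genes on the log2(value + 1) scale with 95% intervals from limma, for each time against sham (left) and between times (right). The red ring marks the 1 difference past adjusted p 0.05, Nr1d1 at 6 h and 12 h against 1 h and 72 h (-2.68). All 6 intervals of 12 h against 6 h include 0.

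Within run label A&B, the 72 h libraries were set against sham. By limma 0 of 6 members were called and 0 had an unadjusted p under 0.05, edgeR and DESeq2 called 0, and 0% of all features were called by limma, with 806 at an unadjusted p under 0.05. In the fit 4 of 6 members were higher at 72 h and 2 lower, with a median of 0.10 against -0.05 over all features, and the signs of Per1, Per2 and Dbp turned under at least 1 alternative. At 1 h 0 of 6 were called by limma and by edgeR and 1 by DESeq2 (Per2), 2 had an unadjusted p under 0.05 (Per1 and Per2) beside 7.29% of all features, and 0.135% of all features were called by limma. DESeq2's share of all features at 1 h is not given here. Between 72 h and 1 h limma, edgeR and DESeq2 each called 0 of 6, with 2 at an unadjusted p under 0.05 (again Per1 and Per2) beside 9.01% of all features, and 0.018% of all features called by limma.

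Against sham across run labels, 5 of 6 members were lower at 6 h (median -1.16, all features -0.04) and 6 of 6 at 12 h (median -0.78, all features -0.06), both on the log2(value + 1) scale. The exception at 6 h was Clock at 0.24. For Per2 at 12 h the direction depends on the measure and on 12 h replicate 3 (118). Its mean normalised read count was 57.2 against 54.6 in sham, but its median was 38.4 against 49.8. Its log2 difference was 0.12 in edgeR and 0.094 in DESeq2, and -1.11 in limma without that library. By limma, edgeR and DESeq2 0 of 6 were called at 6 h and at 12 h (DESeq2 gave no adjusted p for Nr1d1 and Arntl), with 2 members (Nr1d1 and Dbp) at an unadjusted p under 0.05 at 6 h and 0 at 12 h, beside 17.1% and 13.1% of all features. Over all features limma called 0.486% at 6 h and 0.072% at 12 h. These comparisons share the sham libraries, so a sham library that is high for a gene moves all of them. The run label moves with these differences in full, and its part in them cannot be told apart.

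Over the 5 groups together, limma's F test called 0 of 6 members and 1.11% of all features. Unadjusted p was under 0.05 for 4 members: Per2 (0.00409, rank 356 of 11117), Per1 (0.0111), Nr1d1 (0.0117) and Dbp (0.0285). Their limma adjusted p was 0.127, 0.188, 0.191 and 0.273. It was 0.794 for Arntl and 0.588 for Clock. DESeq2's likelihood ratio test called 2, Per1 (adjusted p = 0.0201) and Per2 (0.0261), and gave no adjusted p for Nr1d1. The share of all features that DESeq2 called is not given here, so its 2 calls cannot be set beside limma's 1.11%. edgeR called 0. Limma without 12 h replicate 3 called 1 of 6, Per2, and without 12 h replicate 2 called 1, Per1.

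Relations among the members were computed on the log2 scale. Of the 15 pairs correlated over the 15 libraries, 0 passed after adjustment (lowest adjusted permutation p of 0.581 for Pearson's r and 0.318 for Spearman's rho). Per1 and Per2 had r = -0.481 (permutation p = 0.0775) and rho = -0.357 (permutation p = 0.194). Without the 2 libraries farthest from the Per1 median r was -0.608, and within run labels it was -0.699 in A&B and -0.286 in C. Nr1d1 and Dbp had r = 0.479 (permutation p = 0.0726) and rho = 0.495 (permutation p = 0.0635), but within run labels r was -0.266 in A&B and -0.221 in C, so that the relation did not hold within run labels. Arntl had r between -0.102 and 0.185 with the other 5, its transcriptional repressor Nr1d1 at 0.161 among them.

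As a measure of likeness, every tested feature was ranked by its r with each member over the 15 libraries. Dbp ranked 1167 of 11116 for Nr1d1, and Nr1d1 ranked 660 for Dbp, the closest of any 2 members. Per2 ranked 10641 for Per1. The annotated feature most like Per1 was ENSRNOG00000006949 with r = 0.894 (0.792 within A&B and 0.927 within C), whose mean was 80.2 ± 3.45 in sham, 111 ± 13.5 at 1 h and 51.7 ± 22.9 at 12 h (SD, n = 3). The one most like Clock was ENSRNOG00000009812 with r = 0.928 (0.541 within A&B and 0.972 within C), with 11.1 ± 2.12 in sham, 18.6 ± 7.20 at 6 h and 9.68 ± 8.42 at 12 h (SD, n = 3). The files give no names for these IDs.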

How the data were processed

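Blood went into PAXgene tubes, and 1 ug of total RNA into an NEBNext Ultra kit, read as pairs of 150 bp, per the labels' protocols. Bowtie 0.12.2 and Rnor_6.0 stand in the submitters' processing notes without a role; no source used here gives the counting tool, annotation or strand. The deposited signal was made by the authors by dividing reads by 1 factor per library, as worked out from the values: 100% of values in each library were whole multiples of a step within 0.01. In sham replicate 1 the step is close to 1, so recovery is less well tested there.

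The test was limma 3.58.1 (trend, robust) in R 4.3.3 on log2(value + 1), 1 fit of 5 group means to all 15 libraries, two-sided, with Benjamini-Hochberg adjustment over 11117 features and a threshold of 0.05 ("called"). Such differences understate the change of low genes. edgeR 4.0.16 (quasi-likelihood) and DESeq2 1.42.0 ran on the recovered reads, DESeq2 on all features with its own filter. Correlations used 100000 permutations. Members, lists and tests were chosen with earlier results of these data known, and all 6 members are named whatever their test. Deviations from group means of same-numbered 6 h and 12 h libraries correlated by 0.132, 0.147 and 0.448 for replicates 1 to 3, each over 0.1. Differently numbered libraries of these groups correlated by -0.322 to 0.160, so the check does not set replicates 1 and 2 apart as pairs. The replicate number was still taken as pairing these 2 groups, as a weak hint from the data and not from the labels. In the fit the block covered all 15 libraries, those of sham, 1 h and 72 h among them. Sham with each time, and 1 h with 72 h, did not pass this check. Pairs of 1 h or 72 h with 6 h or 12 h were not checked.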

Additional observations from a re-analysis of the deposited data

Results flagged for a closer look

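Clock lay on opposite sides of sham at 2 times of the same run label. Every 1 h library (9.39 to 13.6) was below, and every 72 h library (27.6 to 30.3) above, the 3 sham libraries (14.8 to 23.9). The 1 h libraries held 10 to 14 Clock reads each. Both positions rest on neighbours with few reads, so the order is not settled at this depth. The 1 h library of 13.6 has 14 reads and the sham library of 14.8 has 19. The 72 h library of 27.6 has 21 reads and the sham library of 23.9 has 24. Of all features, 11.3% lay wholly below sham at 1 h, 7.78% wholly above sham at 72 h and 7.95% wholly above 1 h at 72 h. The share with both positions against sham was not computed. The log2 difference between 72 h and 1 h was 1.23 and missed the threshold in limma (adjusted p = 0.725), and it stayed between 1.01 and 1.31 over its alternatives.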

How the results depend on the processing

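Over the 42 differences of single clock genes, 1117 of 1198 alternative values kept their direction and their side of the threshold, 20 lost the call, 16 gained one and 45 turned direction. The count of 1117 is no measure of robustness. Many alternatives could not turn a direction, such as leaving out a library of a group not compared, the replicate block or no filter. Only the Nr1d1 difference was called in the main fit, so for all others staying uncalled counts as kept. Apart from the alternatives named next, 0 of 6 stayed the count in the comparisons that called 0. The 20 losses are those of Nr1d1 at 6 h and 12 h against 1 h and 72 h, which passed in 8 of 28 alternatives, with adjusted p from 0.00404 to 0.137. Its comparison called 1 member and went to 0 under edgeR, TMM, quantile normalization, equal totals without the dominant features, a pseudocount of 0.5, a filter at 30 (which leaves Nr1d1 out), the replicate block and a fit to the compared groups only, and to 3 with array weights. Leaving out single libraries gave 0 to 1 here, at 1 h against sham, at 12 h against sham and over the 5 groups. At 1 h the count went from 0 to 1 under DESeq2, array weights (both Per2) and the compared groups only (Per1). Over the 5 groups it went from 0 to 2 under DESeq2, 1 with the factor as covariate and 4 with array weights. Between 72 h and 1 h it became 1 with the covariate or array weights (Per2) and 1 in the compared groups only (Per1), between 12 h and 6 h 1 with array weights, at 12 h 3 with array weights and at 6 h 1 in the compared groups only (Per2). The shares of all features given above are those of the main fit and not of these alternatives. With array weights Dbp at 12 h against sham had an unadjusted limma p of 0.00518 and an adjusted p of 0.0221. Adjustment raises p that little only where many features have small p, so the counts with array weights cannot be set against those shares.

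Under edgeR, TMM and DESeq2 the direction turned for Per1 between 12 h and 6 h (0.016, 0.015 and 0.036), Per2 at 12 h against sham (0.12, 0.12 and 0.094), Arntl between 72 h and 1 h (0.24, 0.26 and 0.23) and, at 6 h and 12 h against 1 h and 72 h, Arntl (-0.41, -0.40 and -0.41) and Clock (0.15, 0.17 and 0.14). Arntl in that last comparison was also negative, at -0.090 with quantile normalization, -0.12 with equal totals, -0.085 with a pseudocount of 5 and -0.032 with the covariate. Equal totals moved the median of all features to -0.40, -0.73, -0.54 and -0.41 at 1 h, 6 h, 12 h and 72 h against sham, and moved Clock at 6 h (-0.44) and Per1 (-0.24) and Dbp (-0.29) at 72 h below 0 along with it, while all 3 stayed above that median. The covariate turned Per2 at 72 h (0.17). Leaving out single libraries turned direction for these differences from sham: Per1 at 6 h (-0.53 to 0.18), 12 h (-1.70 to 0.23) and 72 h (-0.17 to 0.40), Per2 at 12 h (-1.11 to 0.32), Nr1d1 at 1 h (-0.014 to 0.97), Dbp at 72 h (-0.13 to 0.30), Arntl at 1 h (-0.76 to 0.035) and 12 h (-0.95 to 0.058), and Clock at 6 h (-0.080 to 0.67) and 12 h (-2.50 to 0.091). Between 12 h and 6 h it turned Per1 (-1.46 to 0.47) and Nr1d1 (-0.024 to 0.89), between 72 h and 1 h Arntl (-2.05 to 0.41), and at 6 h and 12 h against 1 h and 72 h Arntl (-0.57 to 0.66) and Clock (-1.08 to 0.21). The causes were not tested.

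With the replicate block, 0 of 6 clock genes were called between 12 h and 6 h, as without it, and the block changed no other call than that of Nr1d1. Over all features it moved the calls at 6 h from 54 to 123 and at 12 h from 8 to 15, where the numbers are shared but do not pair the libraries. Depth limits Nr1d1 and Arntl most, with 91 and 235 reads over 15 libraries.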
